A study of Homo sapiens with 12 samples.

Results

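RAB GTPases are the largest branch of the RAS-like small GTPases, and the genes described here are the 63 protein-coding human genes whose symbol is RAB, a number and at most 1 further letter, out of 20056 protein-coding genes in the RefSeq annotation. RAB proteins mark the membranes of the secretory and endocytic routes. Bound to GTP and held on a membrane by prenyl lipids, a RAB recruits the tethers, motors and adaptors that carry or dock a vesicle, and hydrolysis of GTP ends that state. Exchange factors load the GTP, GTPase activating proteins promote its hydrolysis, and GDP dissociation inhibitors take the inactive protein off the membrane. In polarised epithelia such as bile duct cells they direct apical and basolateral traffic.

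The study mapped N4-acetylcytidine (ac4C), the RNA mark that the acetyltransferase NAT10 places on cytidine. The cells were RBE, a human intrahepatic cholangiocarcinoma line, infected with lentivirus in the presence of polybrene and selected as stable lines with puromycin. One arm carried a short hairpin RNA against NAT10 (sh-NAT10) and the other arm a control hairpin (sh-NC), as the sample titles name them, although the treatment protocol mentions only the NAT10 virus for every sample. Each arm had an ac4C immunoprecipitate and an input in 3 replicates, 12 libraries in 4 groups, and the stable lines were grown from resistant colonies. The deposited values are 1 peak list per arm, with 28047 peaks for sh-NAT10 and 34365 for sh-NC, both on build hg38. The labels give the molecule as polyA RNA, while the extraction protocol describes total RNA. The lists hold no RNA level of NAT10, so its knockdown was not checked here. The replicates are not separated in these lists and their depth is unknown, so no value below has a replicate error, and no test between the arms was possible. A peak missing from a list cannot be told apart from less RNA of that gene or too few reads. Of 10 cholangiocyte and biliary markers 9 had a sh-NAT10 peak and 8 a sh-NC peak, among them KRT7 with 10 and 11 peaks, whereas EPCAM had none in either list. Of 6 neuronal markers, 3 had a sh-NAT10 peak and 6 a sh-NC peak, with 6 and 83 peaks in all. Their median gene span was 285017 bp, against 12704 bp for the biliary markers, and the part of gene length was not tested. The hepatocyte, fibroblast, immune and endothelial markers had 3 and 3, 1 and 1, 7 and 7, and 0 and 1 peaks.

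RAB genes carried ac4C peaks in both arms. A peak was counted on a gene when it overlapped the gene span by at least 1 bp on either strand, which gave 84 sh-NAT10 and 123 sh-NC peaks on the 63 genes. The sh-NAT10 number was 68.3% of the sh-NC number, against 81.7% over all protein-coding genes. RAB9B alone held 13 of the sh-NC peaks. Without it the numbers were 84 and 110. A sh-NAT10 peak was present on 30 RAB genes (47.6%, 95% Wilson interval 35.8 to 59.7) and a sh-NC peak on 35 (55.6%, 43.3 to 67.2). Over all protein-coding genes these shares were 42% and 47.1%, both inside the RAB intervals, and the median gene span was 30011 bp for RAB genes and 24092 bp for all. The Wilson intervals cover counting error only and treat genes or peaks as independent, which they are not.

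Most RAB genes with peaks had them in both lists. Peaks in both were found on 24 genes, in the sh-NAT10 list only on 6 and in the sh-NC list only on 11. Of the 30 genes with a sh-NAT10 peak, 20% (9.51 to 37.3) had no sh-NC peak, against 17.4% of all protein-coding genes with a sh-NAT10 peak. Of the 35 genes with a sh-NC peak, 31.4% (18.6 to 48) had no sh-NAT10 peak, against 26.3% of all protein-coding genes with a sh-NC peak. Both shares lay near the background. Fewer sh-NAT10 than sh-NC peaks were found on 25 of the 41 RAB genes with any peak (61%, 45.7 to 74.3), and the background was 46.1%, close to the lower end of that interval. More sh-NAT10 peaks were found on 11 (26.8%, 15.7 to 41.9), with a background of 33.3%. The median difference, sh-NAT10 minus sh-NC, was -1 peak over these 41 genes and 0 over all genes with a peak. Of the 25 genes with fewer peaks, 15 differed by a single peak.

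No peak was listed in either arm on 22 of the 63 members, against 9141 of 20056 protein-coding genes. These were RAB2B, RAB3A, RAB3D, RAB6D, RAB7B, RAB15, RAB17, RAB19, RAB23, RAB24, RAB25, RAB27B, RAB33B, RAB34, RAB37, RAB39A, RAB40A, RAB40B, RAB41, RAB42, RAB43 and RAB44. They include RAB17 and RAB25, both known from apical recycling in epithelial cells, and RAB3A, the synaptic vesicle RAB.

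**Figure D1:**
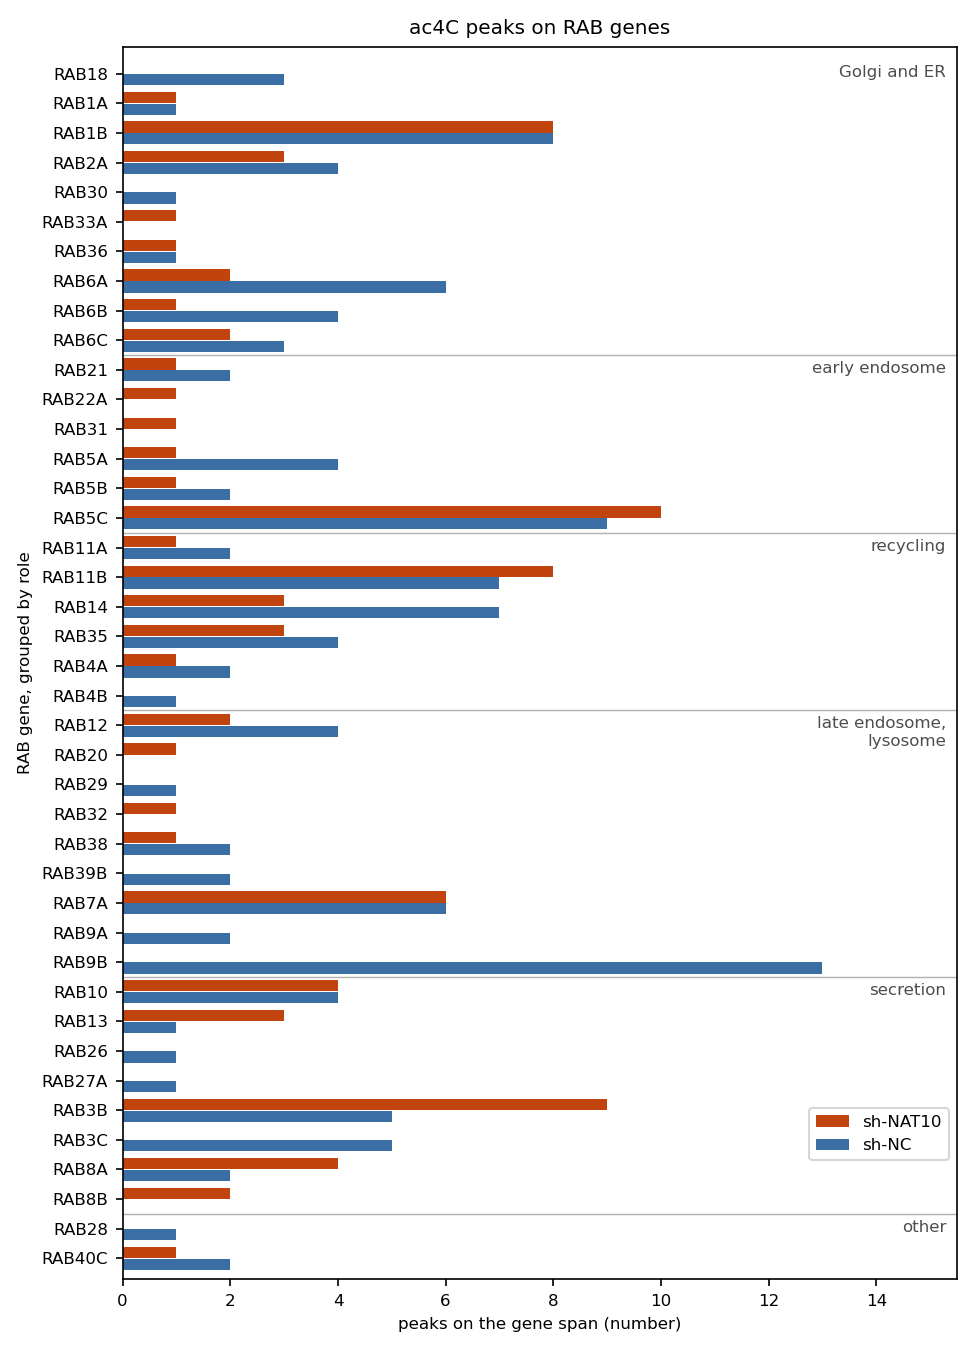
Number of ac4C peaks (x axis) on each of the 41 RAB genes with any peak (y axis), with the sh-NAT10 bar above the sh-NC bar and genes grouped by role. RAB5C (10 and 9 peaks), RAB1B (8 and 8) and RAB11B (8 and 7) each have at least 7 peaks in both lists, and RAB9B has 0 and 13.

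At 3 genes the 5′ edge of a gene-strand peak lay within the first 50 transcribed bases, and the edge was at the same base in both lists. These stretches are the ones for which sequence was at hand, taken from the RefSeq start windows of GRCh38.p14. Each is written 5′ to 3′ on the transcript strand, and capitals mark the bases inside the peak.
RAB5C: aggccggagCCTGGGACACCGCCGGCGGGG
RAB35: gctgccggagcagcccgaagggagCTGCGG
RAB11B: ctgcggagtcgccgatcccgccggaagcgC
The RAB5C stretch covers bases 9 to 38 of the transcript (chr17:42154952-42154981, minus strand), the RAB35 stretch bases 21 to 50 (chr12:120116704-120116733, minus strand) and the RAB11B stretch bases 21 to 50 (chr19:8390380-8390409, plus strand). Cytidine, the base that carries the acetyl group in ac4C, makes up 10 of the 30 bases in RAB5C, 9 in RAB35 and 12 in RAB11B. Repeats of CNN, a cytidine followed by any pair of bases, have been described around ac4C, and 4 such repeats in a row were searched on the transcript strand only. The motif was found in the RAB5C stretch shown and in neither of the other stretches, but the first 50 bases of RAB35 hold it outside the stretch shown. Within the first 50 bases it occurred in 28.2% of the 71 start windows of 50 RAB genes and in 29.7% of 22199 start windows of all protein-coding genes, so its presence in RAB5C and RAB35 is common for such windows.

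Among the early endosomal RABs, RAB5C had nearly the same peaks in both lists, while RAB5A and RAB5B had fewer in the sh-NAT10 list. The RAB5 proteins drive fusion of early endosomes. RAB5C had 10 sh-NAT10 and 9 sh-NC peaks, all on the gene's strand, and every one overlapped a peak of the other list. The last of them in each list touches RAB5C only at the gene end and lies almost wholly outside it, over HSPB9 and part of KAT2A. Its 75 bp peak at the gene start (chr17:42154898-42154972) had the same coordinates in both lists, with deposited scores of 11.03 and 11.19. The scores are the authors' own, their scale is unknown, and most lie above 10, with medians of 12.37 in the sh-NAT10 list and 12.17 in the sh-NC list. A 100 bp peak near the gene end (chr17:42126748-42126847) was also identical, with scores of 69.90 and 26.63. It lay inside a 2487 bp peak that was identical too and had scores of 1.13 and 0. RAB5C held 5 of the 20 RAB peaks with identical coordinates in both lists.

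RAB5A had 1 sh-NAT10 and 4 sh-NC peaks. The 25 bp sh-NAT10 peak, with a score of 12.04, lay within a 444 bp sh-NC peak (chr3:19975609-19976052) with a score of 15.92. Its highest sh-NC score was 19.76, for a 100 bp peak with no sh-NAT10 counterpart. RAB5B had 1 and 2 peaks, and 1 recurred. RAB21, which traffics integrins, had a 14661 bp sh-NAT10 peak and 2 narrow sh-NC peaks. RAB22A and RAB31, relatives of RAB5, had 1 sh-NAT10 peak each and none in the sh-NC list, with scores of 10.65 and 15.83. Of the 7 early endosomal genes, 3 had fewer sh-NAT10 peaks, 3 had more and RAB17 had none.

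RAB1B, which acts between the endoplasmic reticulum and the Golgi, had as many peaks in both lists, whereas RAB6A had fewer in the sh-NAT10 list. RAB1B had 8 peaks in each, 5 of them with identical coordinates. On the minus strand, opposite to the gene, 4 sh-NAT10 and 3 sh-NC peaks overlapped its span. In each list 1 of these, an identical 5927 bp peak with scores of 0.65 and 0.47, ran past the gene end into CNIH2. CNIH2 also lies on the plus strand, so that peak was opposite to both genes. Most minus-strand peaks in each list also overlapped the annotated gene LOC107984340, as did the plus-strand ones, and its strand is not known here. Part of the signal on that strand may not come from RAB1B RNA. Its close paralog RAB1A had 1 peak in each list, at different places. The sh-NAT10 peak was 50 bp wide with a score of 10.88 (chr2:65129944-65129993). The sh-NC peak was 175 bp wide with a score of 30.16 (chr2:65088289-65088463).

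RAB6A, a Golgi RAB that moves vesicles with kinesin and dynein, had 2 sh-NAT10 and 6 sh-NC peaks. The sh-NAT10 peaks, 25 and 75 bp wide with scores of 10.74 and 10.68, both lay inside a single 150 bp sh-NC peak (chr11:73677288-73677437). The other 5 sh-NC peaks had no counterpart, among them the highest scoring, a 150 bp peak nearest the gene end (chr11:73676163-73676312) with a score of 22.04. RAB6B, its paralog known from neurons, had 1 and 4 peaks, but each of them also overlapped the neighbouring gene SRPRB. On RAB6C there were 2 sh-NAT10 peaks on the opposite strand, inside the span of an antisense RNA, and 3 sh-NC peaks on its own strand, with none shared. RAB6C arose as a copy of RAB6A, and reads of such copies can be misplaced between them, so its counts are uncertain.

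RAB2A, an ER to Golgi RAB, had 3 and 4 peaks, and 2 recurred with identical coordinates. One of these, a 100 bp peak, had scores of 21.76 and 28.20. RAB18, linked to the endoplasmic reticulum and lipid droplets, had 0 sh-NAT10 and 3 sh-NC peaks, each at most 50 bp wide and with scores between 10.36 and 12.25. RAB30, a Golgi RAB, had 0 and 1, with a score of 7.72. RAB33A had 1 sh-NAT10 peak, with a score of 13.28, and none in the sh-NC list. That peak also overlapped AIFM1 and lay on the strand of AIFM1, while RAB33A had no annotated strand here. Counting peaks on the gene's strand that overlap no other protein-coding gene, RAB33A had 0 and 0. RAB36 had 1 peak in each list, both also overlapping RSPH14. Of the 16 genes of ER and Golgi traffic, 6 had fewer sh-NAT10 peaks, 1 had more, 3 had equal numbers and 6 had none.

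In the recycling group, RAB11B peaks were all shared between the lists, and RAB14 had the largest difference in number. RAB11B had 8 sh-NAT10 and 7 sh-NC peaks, and all 15 overlapped a peak of the other list. A 613 bp peak near its gene end (chr19:8402913-8403525) had a score of 20.01 in the sh-NAT10 list and began at the same base as a 663 bp sh-NC peak with a score of 12.60. RAB11A, the paralog studied most in recycling endosomes, had 1 sh-NAT10 peak of 8174 bp and 2 sh-NC peaks of 509 and 225 bp. RAB14, which links the Golgi to endosomes, had 3 and 7 peaks. The 4 sh-NC peaks without a counterpart included a 4029 bp peak (chr9:121182939-121186967) with a score of 30.87. Its highest sh-NC score, 99.51, belongs to a 20455 bp peak that lies wholly within the span of GSN and touches RAB14 only at its start. It overlaps a 20505 bp sh-NAT10 peak with a score of 13.36. RAB35, which returns cargo from endosomes to the plasma membrane, had 3 and 4 peaks, and 3 of each overlapped. The peak at its gene start (chr12:120116635-120116709) was identical, with scores of 16.05 and 12.52. RAB4A had 1 and 2 peaks at different places, and RAB4B had a single sh-NC peak of 14659 bp on the opposite strand, with a score of 19.52. Of the 8 recycling genes, 5 had fewer sh-NAT10 peaks, 1 had more and 2 had none.

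Late endosomal and lysosomal members had 11 sh-NAT10 and 30 sh-NC peaks, and RAB9B made up most of that gap. RAB7A, which directs late endosomes to lysosomes, had 6 peaks in both lists, and 5 of each overlapped. RAB9A, which returns mannose 6-phosphate receptors to the Golgi, had 0 sh-NAT10 peaks and 2 sh-NC peaks of 150 and 125 bp, with scores of 12.24 and 12.22. RAB9B, its paralog, had 0 and 13. On the plus strand, opposite to RAB9B, lay 9 of the 13. The highest score of any sh-NC peak on a RAB gene, 132.79, belongs to an 11781 bp peak on RAB9B. Counting peaks on the gene's strand that overlap no other protein-coding gene, RAB9B had 0 and 2. The neuronal markers given above also had peaks mostly in the sh-NC list, and their part in the RAB9B, RAB3C and RAB39B counts was not tested.

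RAB39B, known for a role in neuronal development, had 0 and 2 peaks, with scores of 11.82 and 11.36. RAB38, which serves melanosomes and related organelles, had 1 sh-NAT10 and 2 sh-NC peaks. A 35911 bp peak (chr11:88062024-88097934) was identical in both lists, with scores of 111.24 and 71.09. The score of 111.24 was the highest of any sh-NAT10 peak on a RAB gene. The other sh-NC peak on RAB38, 90695 bp wide with a score of 12.79, had no sh-NAT10 counterpart. RAB29, which binds the kinase LRRK2, had 0 and 1, a 175 bp peak (chr1:205770261-205770435) with a score of 27.56. RAB12 had 2 and 4 peaks, but 2 of the sh-NC peaks lay on the strand opposite to all its others, over the antisense gene RAB12-AS1, and without them the counts were 2 and 2. RAB20 and RAB32 had 1 sh-NAT10 peak each, with scores of 10.97 and 12.72, and no sh-NC peak. Of the 12 genes in the group, 6 had fewer sh-NAT10 peaks, 2 had more, 1 had equal numbers and 3 had none.

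Secretory RABs had more sh-NAT10 peaks on 4 of 13 genes, with fewer on 3, equal numbers on 1 and none on 5. RAB3B, a RAB of regulated exocytosis, had 9 sh-NAT10 and 5 sh-NC peaks, the largest excess among the members. All 5 sh-NC peaks overlapped a sh-NAT10 peak. The 4 additional sh-NAT10 peaks were 25 to 100 bp wide, with scores from 11.07 to 12.70. Its highest sh-NAT10 score, 20.60, was that of a 100 bp peak on the opposite strand over a 5S RNA pseudogene, identical in the sh-NC list with a score of 14.08. RAB8A and RAB8B, which act in exocytosis and cilium formation, had 4 and 2 sh-NAT10 peaks against 2 and 0 sh-NC peaks, and none of them overlapped a peak of the other list. The RAB8B peaks, 33318 and 75 bp wide, had scores of 13.44 and 11.61. On RAB8A, 2 of the 4 sh-NAT10 peaks lay on the opposite strand. RAB13, found at tight junctions, had 3 sh-NAT10 peaks and 1 sh-NC peak. All 3 lay inside the 375 bp sh-NC peak (chr1:153981824-153982198) and together covered 275 bp, so the stretch listed as 1 peak in sh-NC was listed as 3 in sh-NAT10.

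RAB10, which moves the glucose transporter GLUT4 in fat cells, had 4 peaks in both lists, including an identical 225 bp peak near the gene start with scores of 11.21 and 12.30. RAB3C, a neuronal paralog of RAB3B, had 0 and 5 peaks. The sh-NC peaks included a 14762 bp peak on the opposite strand with a score of 27.55 and 4 on the gene's strand with scores of at most 11.81. RAB26 and RAB27A, secretory granule RABs, had 0 and 1 each, and so did RAB28, a RAB of photoreceptor and cilium biology. Their scores were 11.71, 12.82 and 10.80. RAB40C, a RAB that joins a ubiquitin ligase, had 1 and 2 at different places.

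Where RAB peaks lay along the gene was similar in the arms. The 13 genes with no strand in the RefSeq start windows were left out. Of narrow peaks (up to 1000 bp) on the gene's strand, 24 of 47 sh-NAT10 peaks (51.1%, 37.2 to 64.7) and 32 of 71 sh-NC peaks (45.1%, 34 to 56.6) had their middle in the last 10% of the gene span. For all protein-coding genes the shares were 23.8% and 31.8%, below both RAB intervals. The RAB peaks near the end came from 12 of 19 genes in the sh-NAT10 list and 16 of 26 in the sh-NC list, with at most 4 on any gene. In the first 10% lay 12.8% and 9.86% of the RAB peaks, and 8.91% and 6.93% of those of all genes. The span includes introns, and exons and untranslated regions were not analysed here.

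**Figure D2:**
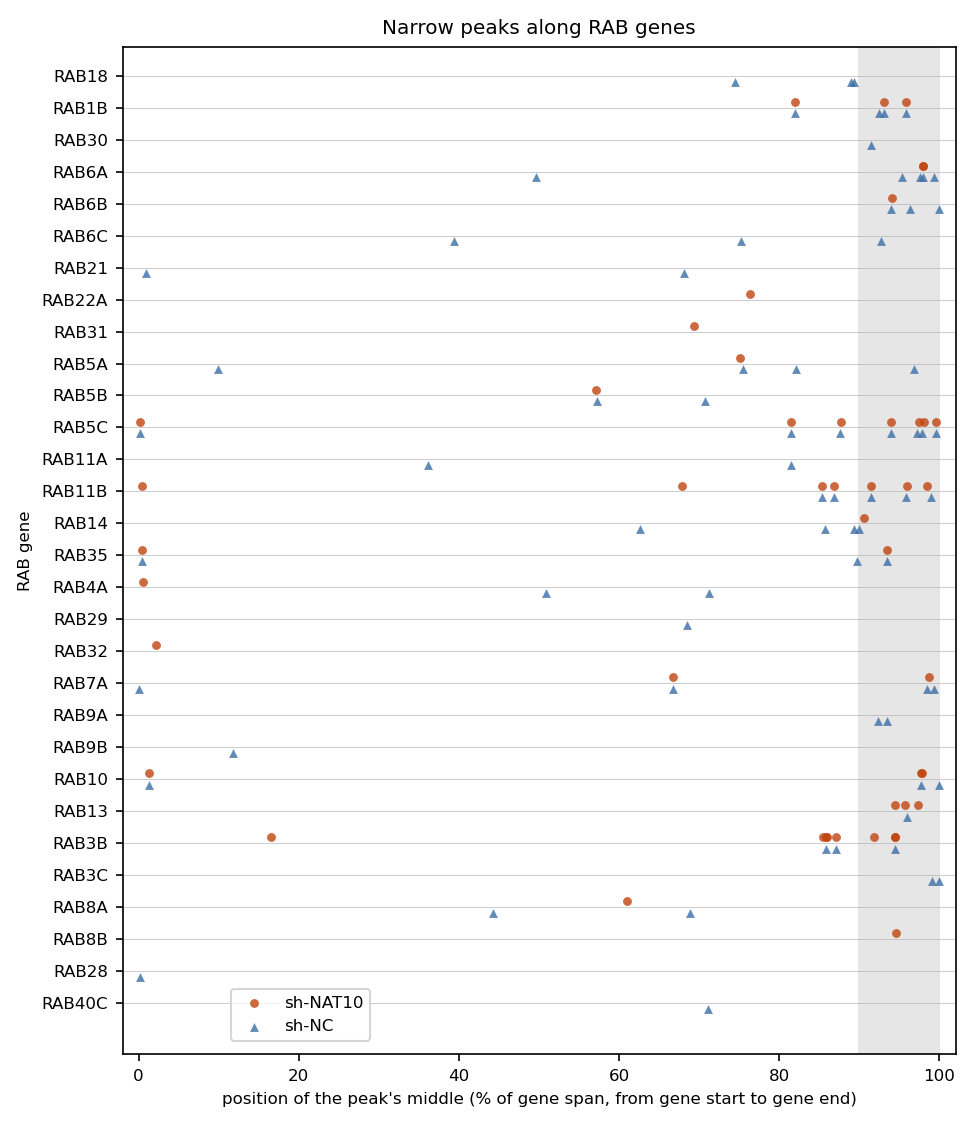
Position of each narrow peak on the gene's strand (x axis, percent of the gene span from start to end, middle of the peak) for every RAB gene with such a peak and an annotated strand (y axis). Circles are sh-NAT10 peaks and triangles sh-NC peaks, and the grey band is the last 10% of the span, which holds 24 of 47 and 32 of 71.

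Most sh-NAT10 peaks on RAB genes had a counterpart in the sh-NC list. On the same strand, 61 of 84 sh-NAT10 peaks (72.6%, 62.3 to 81) overlapped a sh-NC peak, against 54.9% over all protein-coding genes. Every sh-NAT10 peak of RAB5C (10), RAB1B (8) and RAB11B (8) was among the 61, so a few genes weigh heavily in this share. The share without them was not computed. In the other direction 54 of 123 sh-NC peaks (43.9%, 35.4 to 52.7) overlapped a sh-NAT10 peak, against 45.3%. With a reciprocal overlap of at least 50% of each peak the shares were 46.4% and 31.7% for RAB genes and 38.8% and 31.9% for all. Of the sh-NC peaks with a score of 20 or more, 4 of 10 recurred on RAB genes (40%, 16.8 to 68.7), against 63.5% of such peaks over all genes, and of the sh-NAT10 ones 5 of 5, against 70.3%. These 10 and 5 peaks are too few for an order among the scores.

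**Figure D3:**
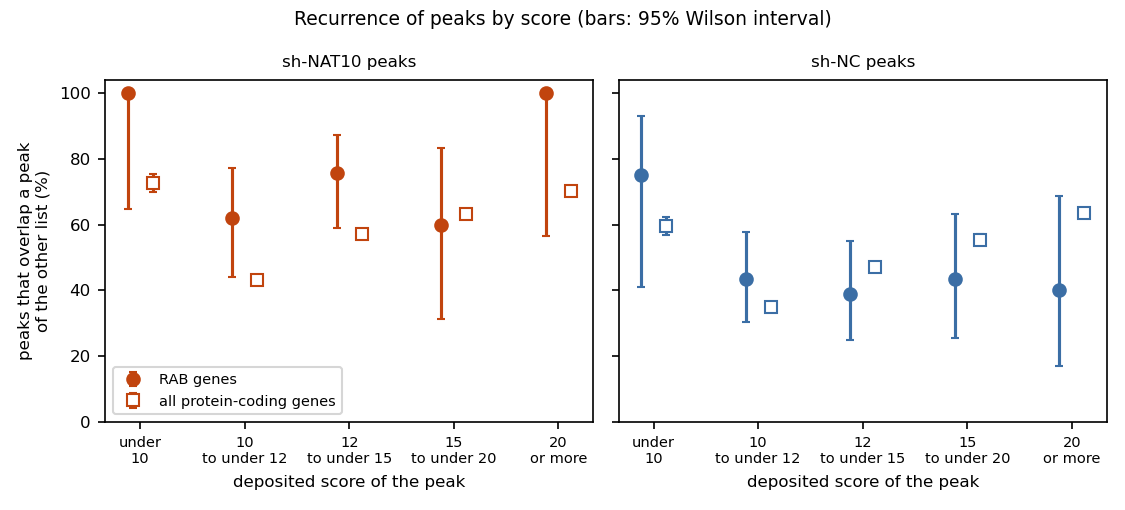
Share of peaks that overlap a peak of the other list on the same strand (y axis, %) by deposited score (x axis), for sh-NAT10 peaks on the left and sh-NC peaks on the right. Filled circles are RAB genes and open squares all protein-coding genes, with 95% Wilson intervals. The RAB intervals are wide, as in the sh-NC bin of 20 or more with 4 of 10 peaks.

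Peak edges show that the number of peaks is a coarse measure. Among the RAB peaks that were not identical, 23 sh-NAT10 and 19 sh-NC peaks shared exactly 1 edge with a peak of the other list, and 3 in each list lay directly beside one. On RAB11B the first 9556 bp of sh-NC signal was listed as 1 peak and matched at both ends by separate sh-NAT10 peaks of 25 and 100 bp. On RAB7A the arms are the other way round, with a 62654 bp sh-NAT10 peak that began at the same base as a 25 bp sh-NC peak.

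Exchange factors and GTPase activating proteins had nearly as many peaks in both lists, and effectors had a lower total in the sh-NAT10 list. The genes named here were chosen after their values were seen. Of 40 exchange factors, 28 had a sh-NAT10 and 27 a sh-NC peak, with 99 and 98 peaks in all. Over all protein-coding genes 42% had a sh-NAT10 and 47.1% a sh-NC peak. DENND1A, which activates RAB35, had 11 in both lists. RAB3IP, an exchange factor for RAB8, had 5 and 0, and DENND5A, one for RAB39, had 3 and 10. Only 2 of the 27 with a sh-NC peak had no sh-NAT10 peak (7.41%, 2.06 to 23.4), against the 26.3% of all genes. Their median span was 79421 bp, against 24092 bp for all genes, and the part of gene length in that share was not tested. Of 37 GTPase activating proteins, 23 and 31 had a peak, with 71 and 77 peaks in all, and 9 of the 31 had no sh-NAT10 peak (29%, 16.1 to 46.6). The median span of the GTPase activating proteins was 84555 bp. TBC1D9B had 8 and 10 peaks and RABGAP1L 2 and 8.

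Of 49 effectors, 38 and 41 had a peak, with 107 and 172 peaks in all. Over all protein-coding genes 42% and 47.1% had a peak. The median span was 86361 bp for effectors and 24092 bp for all genes, and the part of gene length was not tested. Gene by gene, 21 of the 46 effectors with any peak had fewer sh-NAT10 peaks, 14 had more and 11 had equal numbers. Over all protein-coding genes with any peak, 46.1% had fewer and 33.3% had more. The median difference for effectors was 0, so their lower total lay on part of the list. The neuronal markers differed in the same direction, and their part in this was not tested. RIMS1 and RIMS2, which tether synaptic vesicles through RAB3, had 1 and 5 sh-NAT10 peaks against 15 and 19 sh-NC peaks, and MYO5A, a myosin motor, had 3 and 15. EEA1, the RAB5 tether of early endosomes, had 4 and 8, RAB11FIP2, a RAB11 effector, 0 and 7, and MICALL1, a RAB8 and RAB35 effector, 9 and 8. Among the 9 genes of prenylation and membrane release, GDI2, a GDP dissociation inhibitor, had 5 and 3 peaks, and RABGGTA, a subunit of the enzyme that adds the prenyl lipids, 0 and 2. The other small GTPases, 58 genes of other branches of the superfamily, had 92 and 83 peaks. Fewer sh-NAT10 peaks were found on 13 of their 38 genes with any peak and more on 17, against 25 and 11 of 41 for the RABs. Over all protein-coding genes with any peak, 46.1% had fewer and 33.3% had more. The difference between the RABs and the other small GTPases was not tested.

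**Figure D4:**
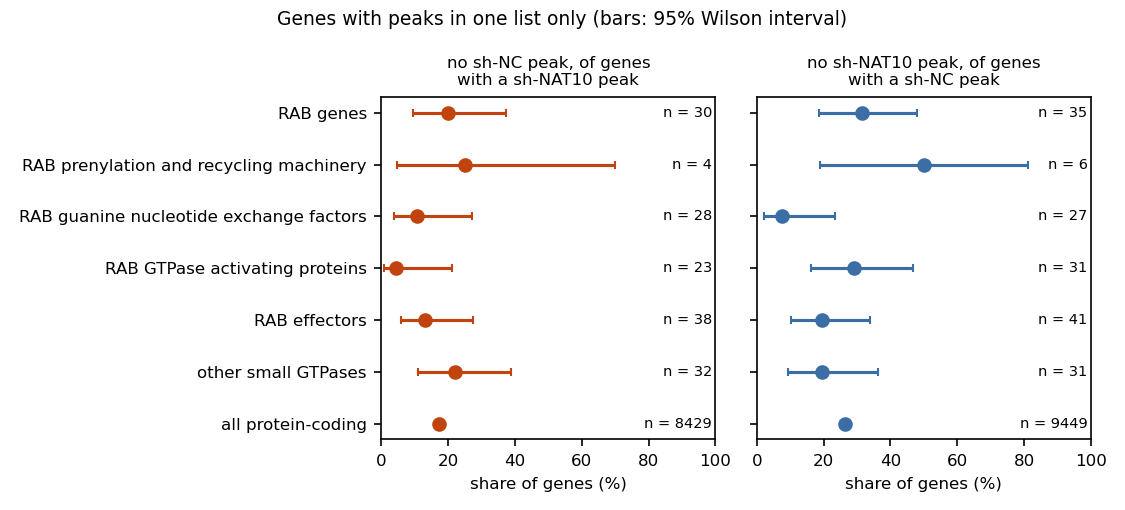
Share of genes (x axis, %) with no sh-NC peak among those with a sh-NAT10 peak (left) and with no sh-NAT10 peak among those with a sh-NC peak (right), for RAB genes, their regulators and effectors, other small GTPases and all protein-coding genes (y axis). Points are shares, bars 95% Wilson intervals, and n the genes counted. The RAB shares of 20% and 31.4% have intervals that include the 17.4% and 26.3% of all genes.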

How the data were processed

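Reads were handled with fastp (0.20.1) and Bowtie2 (2.4.1) on hg38, per the submitters' processing notes. How peaks were called, at what threshold, with which inputs and over which replicates is unknown here. Each of the 2 deposited lists has 12 columns, with 1 block per peak and a score of unstated scale. The sh-NC list was matched by its name, and the remaining one was taken as sh-NAT10. The deposited score is 0 for 592 sh-NAT10 and 907 sh-NC peaks, and infinite for 60 and 67. Other deposited columns hold positions and block lengths.

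Peaks were counted on RefSeq gene spans (GRCh38.p14) with bedtools 2.31.1, at least 1 bp, either strand. Gene strand came from the RefSeq start windows, which held 50 of the 63 RAB genes, and otherwise from most of its peaks. Overlap between lists was taken on the same strand. Tables were made with pandas 2.3.3, SciPy 1.17.1 and NumPy 2.4.6 under Python 3.11.15, and plots with matplotlib 3.10.9. Counting and overlap were tested on simulated data. Full values are given by rule for members with peaks in 1 list only, the 5 largest differences each way, the 5 highest scores per list, and paralog groups. The members and lists were chosen with earlier results of these data known.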

Additional observations from a re-analysis of the deposited data

How the results depend on the processing

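No paired analysis was possible because the peak lists do not separate the replicates. Of 84 alternative values, 72 stayed within 1.5 times the reported count. A score of 20 or more left 5 RAB genes with a sh-NAT10 peak and 9 with a sh-NC peak, on 5 and 10 peaks, with 2 of 5 genes in the sh-NAT10 list only (all genes 47.7%), 6 of 9 in the sh-NC list only (47.2%), and, of 11, 6 with fewer sh-NAT10 peaks (38.3%) and 2 with more (40.8%). Between such peaks 3 of 5 sh-NAT10 and 3 of 10 sh-NC peaks overlapped. With a reciprocal overlap of at least 50% of each peak, 39 sh-NAT10 peaks overlapped in place of 61, and among peaks up to 1000 bp 40. The share of RAB genes with fewer sh-NAT10 peaks lay between 54.5% and 62.2% over the planned settings. It was 57.5%, against 36.8% of all genes, with the sh-NC list shortened by score to the sh-NAT10 length. Settings without RAB9B, on bases covered by peaks up to 1000 bp, and on gene-strand peaks free of other protein-coding genes were chosen after seeing the data. The covered bases are not read here, since the width limit drops sh-NAT10 peaks on RAB11A and RAB21 that overlap narrow sh-NC peaks. Depth is unknown, so a missing peak sets no limit on ac4C.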
